A study of Mus musculus with 8 samples.

Results

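The lymphoid lineage gene loci are 6 windows of the mouse genome around 7 genes, Flt3, Il7r, Ikzf1, Ebf1, Dntt, Rag1 and Rag2, in which chromatin accessibility was compared between haematopoietic stem cells (HSCs) from old and young mice. Members were all deposited peaks that lay fully inside a window, which gave 63 of the 126871 peaks of the series. The rule takes peaks by position alone and uses no measured value, although the genes were picked with earlier results of these data known. Accessibility was measured by ATAC-seq, in which a transposase cuts open chromatin and the reads over a peak are counted. The groups were HSCs of old C57BL/6 mice (4 libraries) and HSCs of young C57BL/6 mice (4 libraries), sorted from bone marrow with the phenotype LSKCD150+CD48-, and no allele or treatment is named for either. The labels give neither the ages nor the sex of the mice, and they do not say whether the replicates were separate animals, so p-values measure only the spread between these libraries.

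The 7 genes follow the path from a multipotent progenitor to a lymphocyte. Flt3 encodes a receptor tyrosine kinase that marks lymphoid-primed multipotent progenitors, and Il7r encodes the alpha chain of the interleukin-7 receptor, which common lymphoid progenitors need to survive and expand. Ikzf1 encodes Ikaros, a zinc finger factor that primes lymphoid genes from the stem cell stage on, and Ebf1 encodes a factor that commits progenitors to the B lineage. Dntt encodes terminal deoxynucleotidyl transferase, which adds nucleotides at the joints of rearranging antigen receptor genes, and Rag1 and Rag2 encode the recombinase that cuts those genes. HSCs do not make lymphocytes directly, and part of the lymphoid programme is already open in them or in their first progeny.

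Peaks are given by their mm9 coordinates and by the distance of their midpoint from the start of their window. No mm9 annotation was used, so peaks were not assigned to promoters, introns or neighbouring genes. In the RefSeq gene order (names only, from build GRCm38.p6) the nearest coding genes are Urad and Pan3 beside Flt3, Capsl and Spef2 beside Il7r, Fignl1 after Ikzf1, Rnf145 and Clint1 beside Ebf1, Blnk and Opalin beside Dntt, and Iftap and Traf6 around the adjacent Rag2 and Rag1. Loci of the sorting markers and of other cell types have no window here and were not analysed here.

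The start regions of Flt3, Dntt and Ebf1 are shown because these 3 windows had the largest ratios of summed signal between the groups among the windows with tested peaks. Each is the 250 bases before the first listed start site in RefSeq (GRCm38.p6), read 5′ to 3′ along the gene, with matches of the E-box letters CANNTG and of the RUNX letters TGTGGT (both strands) in capitals. All 7 genes were matched by symbol. The build differs from that of the peaks, so no peak was placed on these sequences.
Flt3 (GRCm38.p6, chr5:147400490-147400739, minus strand): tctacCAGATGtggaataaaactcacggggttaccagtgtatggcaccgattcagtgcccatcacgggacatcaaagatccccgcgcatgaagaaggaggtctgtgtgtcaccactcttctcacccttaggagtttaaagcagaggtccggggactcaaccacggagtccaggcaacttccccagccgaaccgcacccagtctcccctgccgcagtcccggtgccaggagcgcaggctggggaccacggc
Dntt (GRCm38.p6, chr19:41029025-41029274, plus strand): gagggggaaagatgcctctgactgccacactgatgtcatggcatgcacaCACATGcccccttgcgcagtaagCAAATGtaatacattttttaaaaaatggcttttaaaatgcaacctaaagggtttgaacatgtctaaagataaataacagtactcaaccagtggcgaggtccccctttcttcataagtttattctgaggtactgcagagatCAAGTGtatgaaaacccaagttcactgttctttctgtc
Ebf1 (GRCm38.p6, chr11:44617850-44618099, plus strand): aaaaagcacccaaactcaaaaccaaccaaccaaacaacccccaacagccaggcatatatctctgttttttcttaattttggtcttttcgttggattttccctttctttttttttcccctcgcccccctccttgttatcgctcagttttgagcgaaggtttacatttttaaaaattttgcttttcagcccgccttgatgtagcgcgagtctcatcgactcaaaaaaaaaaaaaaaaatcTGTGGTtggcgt
The Dntt sequence held 3 E-box matches, the Flt3 sequence 1, and the Ebf1 sequence 1 RUNX match, with 0 bases shared between matches. An E-box match was present in 66.2% of 32851 RefSeq start regions of this length, and a RUNX match in 14.0%. Over the first start site of the 7 genes, 5 had an E-box match and 2 a RUNX match. The EBF motif was found at 0 of the 7, TGGGAA (Ikaros) at 1 and GGAAGT (ETS) at 3, against 0.779%, 21.6% and 19.7% of all start regions. Ikzf1 and Ebf1 have 2 listed start sites each. The second of Ebf1, not counted here, held 1 E-box, 1 Ikaros and 1 ETS match, and that of Ikzf1 held none. These matches are a description and no site was tested.

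Total counts in peaks were 4200905 to 5129684 in old libraries and 4229913 to 4992173 in young libraries, and the 63 members held 1608 to 2073 counts in old and 2014 to 2357 in young libraries. Levels are CPM (counts divided by the TMM-scaled library size), where 3 counts in a library equal 0.62 to 0.764 CPM. Across the whole table old replicate 4 was unlike the rest of its group, and its counts differed from theirs by 2.15 to 2.59 chi-square units per peak, against 1.19 to 1.29 among old replicates 1 to 3 and 1.46 to 1.88 among young libraries, where sampling noise alone gives about 1. Results that rest on it are given with and without it.

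The signal summed over a window was lower in old HSCs at Flt3, Dntt, Ikzf1 and Rag1/Rag2 and higher at Ebf1. At these windows the sums did not overlap between the 4 old and 4 young libraries. The sums were not tested, and a lower sum does not mean that all peaks of a window fell. How often windows elsewhere in the genome show no such overlap was not computed. Of the 63 members 41 passed the filter on low counts and were tested. In old libraries 5 of them were higher and 11 lower (quasi-likelihood test of edgeR, p adjusted by Benjamini-Hochberg over all 73164 tested peaks, threshold 0.05). These are 12.2% and 26.8% of the tested members, where 10% of all tested peaks were called higher, 10.4% lower and 20.5% in either direction. The share called higher was thus near the background and the share called lower above it. The median log2 fold change (old minus young) of the tested members was -0.24, against 0.01 over all tested peaks. A peak could pass the filter on the counts of 1 group alone, so these counts describe the tested members only. Among the tested members the old libraries all lay above the young ones at 6 peaks and all below at 11, where 10.5% and 10.6% of all tested peaks did so. Over all 63 members, tested or not, these were 7 and 13, against 8.28% and 9.93% of all 126871 peaks. Without old replicate 4, 7 were called higher and 14 lower of 41 tested, against 14.5% and 15.5% of all tested peaks. The number higher was 3 without old replicate 1, 2 or 3 or young replicate 1, where 7.28%, 6.88%, 6.84% and 8.13% of all tested peaks were called higher. The DESeq2 test called 3 higher and 7 lower of 41, against 6.82% and 7.13% of 73164 peaks. The share higher thus stayed near the background in these fits too. In bulk libraries, fewer cells with an open site and less opening per cell cannot be told apart.

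The summed signal at Flt3 was 102, 104, 99.4 and 111 CPM in old replicates 1 to 4 and 149, 122, 152 and 162 CPM in young replicates 1 to 4. At Dntt it was 41.0, 33.2, 37.8 and 43.8 CPM in old libraries and 56.2, 50.5, 58.8 and 59.5 CPM in young ones. Every old library was below every young one at both windows, and the ratio of means, old over young, was 0.713 at Flt3 and 0.693 at Dntt. Ikzf1 had 136, 147, 164 and 143 CPM in old libraries and 186, 167, 181 and 166 CPM in young ones, a ratio of 0.842. The Rag1/Rag2 window had 39.0, 39.3, 40.6 and 43.2 CPM in old against 45.9, 49.0, 46.5 and 51.3 CPM in young libraries, a ratio of 0.841. The gap between the groups was narrow at these last windows, where the highest old library came close to the lowest young one. Ebf1 went the other way, with 91.4, 93.0, 95.5 and 86.4 CPM in old libraries and 51.1, 75.3, 63.5 and 67.4 CPM in young ones, a ratio of 1.42. The window sums get no p, because the genes were chosen with results of these data known.

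**Figure D1:**
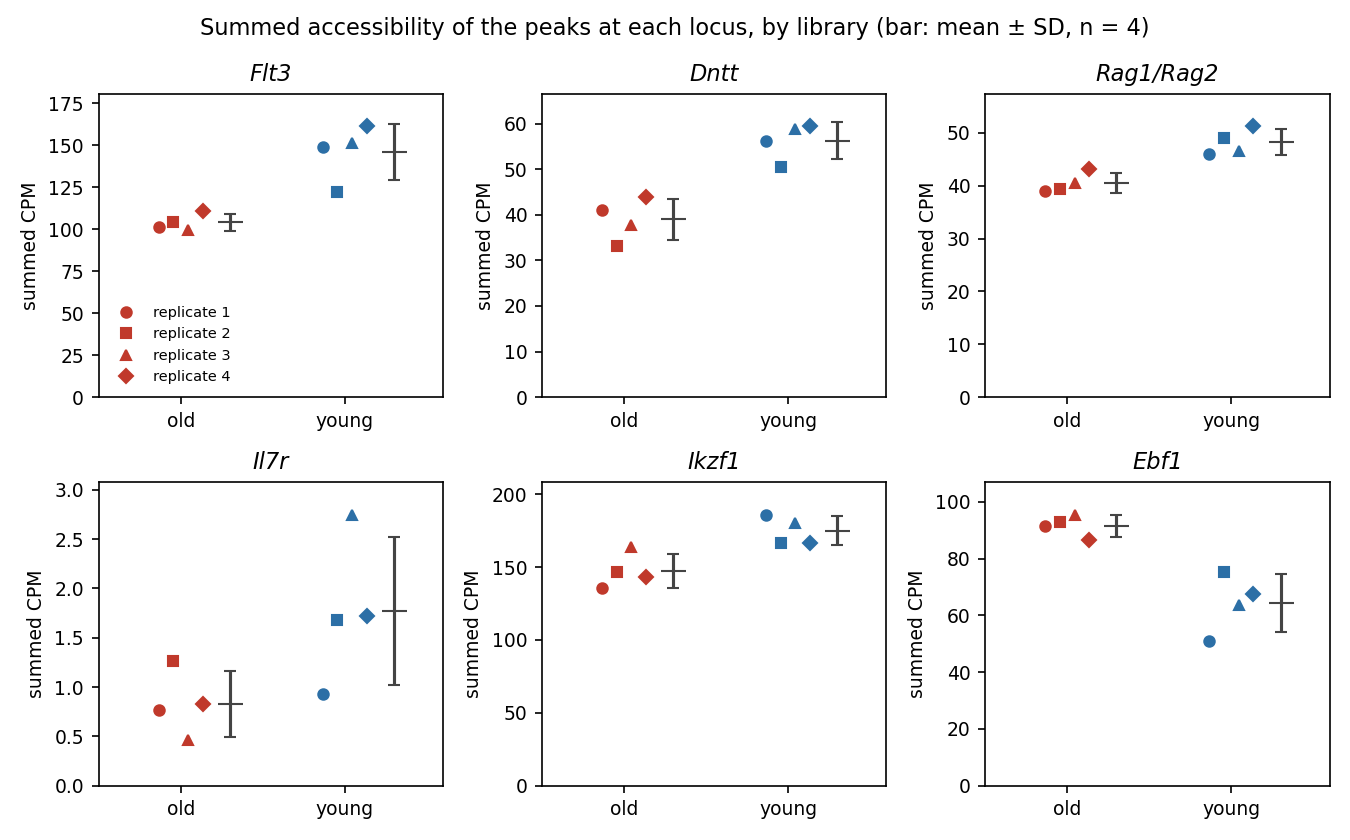
Summed CPM (vertical axis, from 0) of all member peaks in each window, by library, with the mean ± SD of 4 libraries beside the points; marker shapes are replicate numbers. Old libraries lie below young ones at Flt3, Dntt, Rag1/Rag2 and Ikzf1, above them at Ebf1, and overlap them at Il7r.

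Per length of window, the signal was densest at Ikzf1, with a mean over both groups of 134 CPM per 100 kb, and at Flt3, with 125. Dntt had 86.5, Rag1/Rag2 80.6, Ebf1 15.6 and Il7r 2.60 CPM per 100 kb. The B lineage factor Ebf1 and the interleukin-7 receptor gene thus had little open chromatin for their window size in these HSCs, while the windows of Flt3 and Ikzf1 were the most open. The Ebf1 window is 500 kb long and held 17 peaks, or 3.4 per 100 kb, against 16.7 per 100 kb at Ikzf1 and 14.0 at Flt3. The windows are fixed spans around the genes, so these densities depend on where they end.

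At the Flt3 window (chromosome 5, 148.125 to 148.225 Mb), 3 of 11 tested peaks fell in old HSCs and 1 rose. These are 27.3% and 9.09%, where 10.4% of all tested peaks were called lower and 10% higher. The share that rose was thus near the background. The peak from 148152369 to 148153168, 27.8 kb into the window, had 4.07, 4.42, 2.77 and 7.03 CPM in old replicates 1 to 4 and 12.8, 12.2, 11.8 and 17.2 CPM in young replicates 1 to 4. All old libraries were below all young ones, and old replicate 4 was the highest old library. The log2 fold change, with its SE, was -1.54 ± 0.24, and the p was the smallest among the members (edgeR adjusted p = 0.000128). The peak from 148174637 to 148175031, at 49.8 kb, had 4.33, 4.42, 2.77 and 3.51 CPM in old libraries and 14.5, 5.68, 9.50 and 12.3 CPM in young ones. Here old replicate 4 lay among the other old libraries and young replicate 2 was the lowest young one. This gave a log2 fold change of -1.47 ± 0.27 (edgeR adjusted p = 0.000789).

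The third Flt3 peak that fell, from 148177625 to 148178435 at 53.0 kb, had 6.62, 7.99, 7.84 and 15.3 CPM in old libraries and 21.0, 14.7, 19.0 and 21.1 CPM in young ones. Old replicate 4 lay inside the young range, so the groups overlapped. On the log2 scale the peak fell by 0.98 ± 0.22 (edgeR adjusted p = 0.00398), and without old replicate 4 the change was -1.32 ± 0.18 (edgeR adjusted p = 2.16e-06). The peak that rose, from 148200278 to 148201002 at 75.6 kb, had 8.66, 10.9, 9.0 and 7.86 CPM in old libraries and 4.90, 5.26, 3.50 and 6.03 CPM in young ones. All old libraries were above all young ones, with a log2 fold change of 0.88 ± 0.22 (edgeR adjusted p = 0.00721). These 4 calls held with each library left out in turn. Without old replicate 4 the number of Flt3 peaks called lower was 5, where 15.5% of all tested peaks were called lower. The tested peak next to the rising one, at 79.6 kb, had a log2 fold change of -0.54 ± 0.21 that did not pass (edgeR adjusted p = 0.069).

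The strongest Flt3 peak, from 148211495 to 148212349 at 86.9 kb, had 31.6, 32.2, 27.0 and 31.0 CPM in old libraries and 37.3, 27.6, 42.0 and 46.1 CPM in young ones. Young replicate 2 lay within the old range. The log2 fold change of -0.33 ± 0.13 did not pass (edgeR adjusted p = 0.0823), and without young replicate 2 it was -0.46 (edgeR adjusted p = 0.00428). Of the difference in summed signal at Flt3, -42.0 CPM, called peaks of both directions made up -21.0 CPM, and the rest came from peaks that were not called singly. Of the 11 tested Flt3 peaks 9 had a negative fold change, and the median was -0.33. Of 3 Flt3 peaks left out by the filter, the one from 148151242 to 148151592, next to the peak at 27.8 kb, had 2, 4, 2 and 2 counts in old and 7, 16, 15 and 7 counts in young libraries. It was named after its values were seen. In the fit without a count filter its log2 fold change was -2.10 ± 0.50 (edgeR adjusted p = 0.00419).

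The Il7r window (chromosome 15, 9.425 to 9.475 Mb) held 1 peak, from 9459421 to 9459772, which was too weak to be tested. It had 3, 6, 2 and 4 counts in old replicates 1 to 4 and 4, 8, 11 and 8 counts in young replicates 1 to 4, that is 0.83 ± 0.330 CPM in old and 1.77 ± 0.746 CPM in young HSCs (mean ± SD, 4 libraries each). The groups overlapped. In the fit without a count filter the log2 fold change was -1.01 ± 0.49, which did not pass (edgeR adjusted p = 0.164). A difference at Il7r was thus not detected at this depth. Il7r and Flt3 are the receptors of this set. The strongest of 14 Flt3 peaks had 40.2 CPM per kb of peak and the only Il7r peak 3.71. Weak Flt3 peaks were near the Il7r level, down to 3.33 CPM per kb.

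At the Ikzf1 window (chromosome 11, 11.57 to 11.69 Mb), 5 of 11 tested peaks fell in old HSCs and 0 rose, and the strongest peaks did not pass. The share that fell was 45.5%, where 10.4% of all tested peaks were called lower. The peak from 11662940 to 11663792, at 93.4 kb, had 12.7, 10.3, 11.1 and 16.5 CPM in old libraries and 27.5, 17.7, 19.3 and 24.6 CPM in young ones. All old libraries were below all young ones, with old replicate 4 closest to the young range. The log2 fold change was -0.81 ± 0.17 (edgeR adjusted p = 0.00238), and the call held with each library left out. The peak from 11611667 to 11612226, at 41.9 kb, had 4.58, 4.42, 3.92 and 3.72 CPM in old libraries and 7.46, 7.15, 8.25 and 6.25 CPM in young ones. The groups did not overlap, and the log2 fold change was -0.80 ± 0.22 (edgeR adjusted p = 0.0139, and 0.0599 with DESeq2, where it did not pass).

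The Ikzf1 peak from 11630021 to 11630585, at 60.3 kb, had 4.84, 5.47, 5.07 and 8.27 CPM in old libraries and 12.6, 8.84, 13.5 and 7.97 CPM in young ones. Old replicate 4 overlapped the young range. The log2 fold change was -0.84 ± 0.23 (edgeR adjusted p = 0.0132), and -1.035 ± 0.23 without old replicate 4 (edgeR adjusted p = 0.00102). The call was lost without old replicate 1 (0.0534), old replicate 3 (0.051) or young replicate 3 (0.0553). The peak from 11590032 to 11590505, at 20.3 kb, averaged 4.05 ± 1.62 CPM in old libraries and 7.59 ± 1.88 CPM in young ones (mean ± SD, 4 libraries each), with old replicate 1 inside the young range. A log2 fold change of -0.91 ± 0.28 (edgeR adjusted p = 0.0245) did not pass without old replicate 3 (0.1), without young replicate 1 (0.0931) or with DESeq2 (0.0542). The remaining falling peak, at 24.3 kb, had a log2 fold change of -0.69 ± 0.23 (edgeR adjusted p = 0.0328) and no overlap between the groups. It was named after its values were seen, and its call was lost in 6 of 14 alternatives at the threshold of 0.05. These were DESeq2 (0.0821) and the fits without old replicate 1 (0.122), old replicate 2 (0.11), young replicate 1 (0.0558), young replicate 3 (0.088) or young replicate 4 (0.0886). The number of Ikzf1 peaks called lower was 2 with DESeq2 and 3 without old replicate 1 or 3 or young replicate 1 or 3, where 7.04% to 7.78% of all tested peaks were called lower.

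The member with the most counts was the Ikzf1 peak from 11584769 to 11586420, 15.6 kb into the window, which is 1651 bases wide and averaged 34.5 CPM per kb of peak, against 40.2 at the strongest Flt3 peak. It had 55.2, 55.1, 68.0 and 49.8 CPM in old libraries and 55.0, 58.3, 56.3 and 57.5 CPM in young ones. The groups overlapped fully, and the log2 fold change of 0.00 ± 0.08 had a 95% interval of -0.16 to 0.17 (edgeR adjusted p = 0.981). The next strongest Ikzf1 peak, near the far end of the window at 118.8 kb, had a log2 fold change of -0.02 with an interval of -0.24 to 0.20. Changes of the size seen at the 5 falling peaks lie outside both intervals. The falling peaks, each at a mean of 5.72 to 17.5 CPM, made up 89.5% of the difference in the summed signal of -27.6 CPM.

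**Figure D2:**
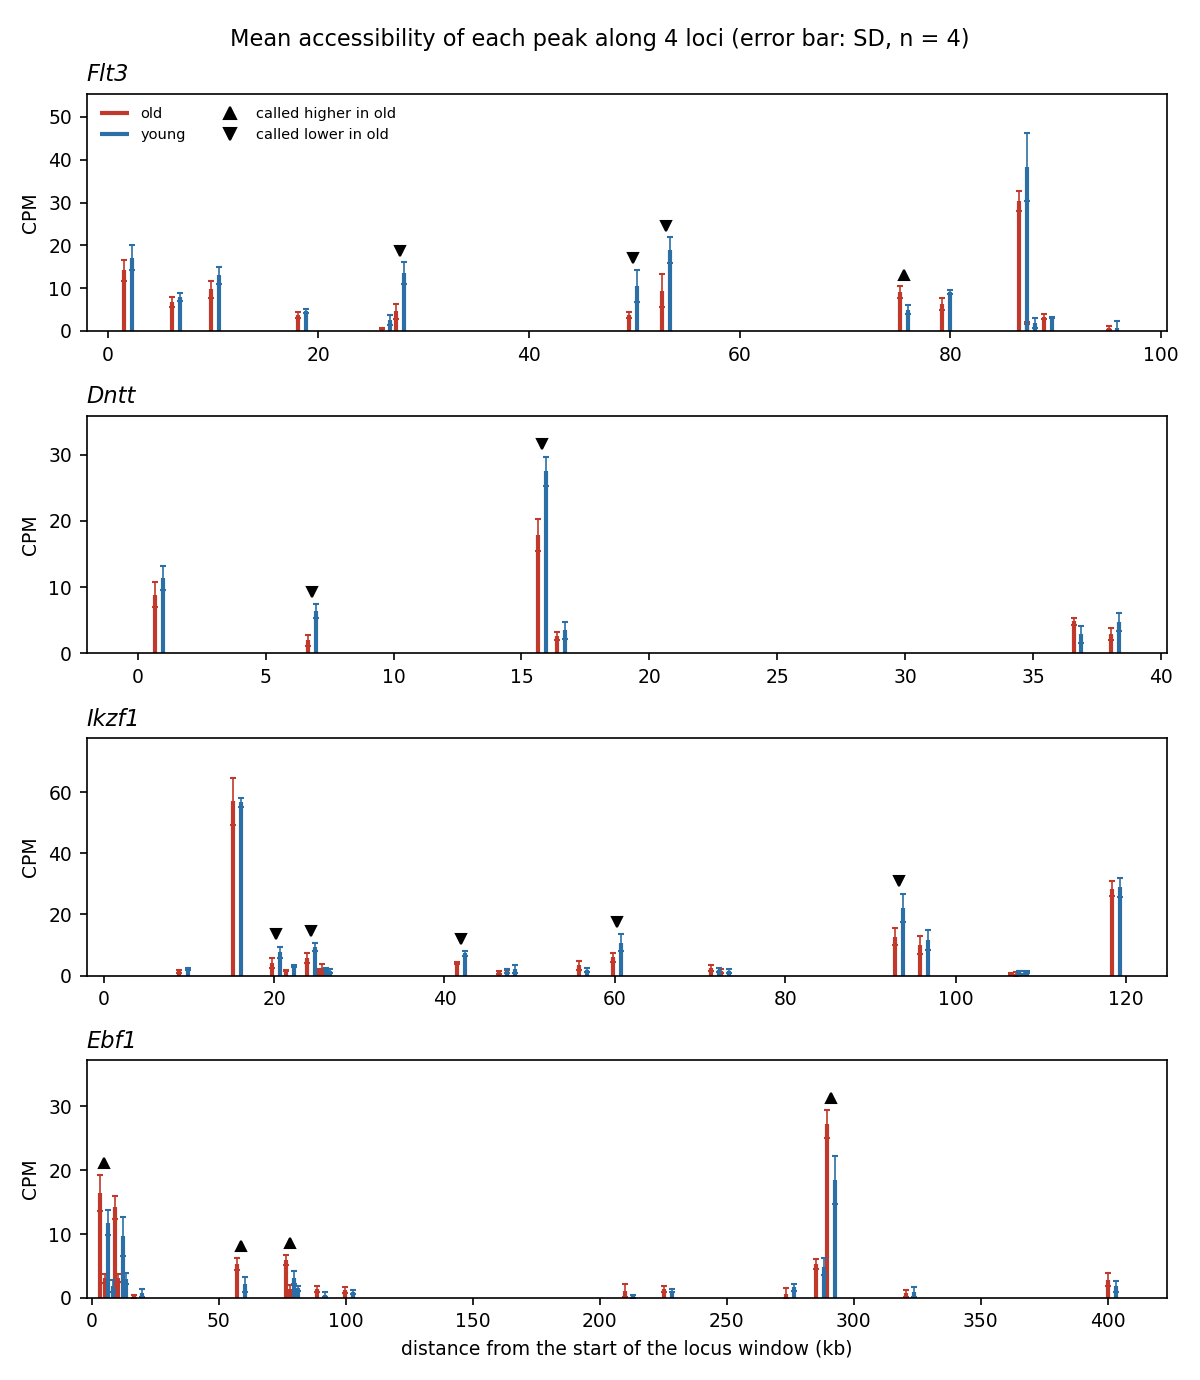
Mean CPM of each member peak in old and young libraries (vertical axis, from 0; error bars are SD, n = 4) against its distance from the start of the window in kb, with old drawn left of young. Triangles mark called peaks; at Ikzf1 they sit on peaks of moderate height between tall peaks at 15.6 and 118.8 kb, and at Ebf1 they all point up.

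At the Ebf1 window (chromosome 11, 44.42 to 44.92 Mb), 4 of 9 tested peaks rose in old HSCs and 0 fell. The share that rose was 44.4%, where 10% of all tested peaks were called higher. All 9 tested peaks had a positive fold change, with a median of 0.56. The 8 untested peaks of the window had log2 fold changes of both signs in the fit without a count filter, from -1.669 to 2.204. None of these untested peaks passed (lowest edgeR adjusted p = 0.0559), so the shared direction holds for the tested peaks only. The peak from 44710526 to 44711451, at 291.0 kb, was the strongest of the window and had 24.9, 26.9, 26.8 and 30.2 CPM in old libraries and 14.9, 23.8, 18.3 and 16.8 CPM in young ones. All old libraries were above all young ones, and old replicate 4 was the highest of all. The log2 fold change was 0.56 ± 0.14 (edgeR adjusted p = 0.00607). The peak from 44478600 to 44479223, at 58.9 kb, had 5.09, 6.10, 6.00 and 4.13 CPM in old libraries and 0.70, 1.68, 2.75 and 3.23 CPM in young ones, which also did not overlap. Its log2 fold change of 1.34 ± 0.34 (edgeR adjusted p = 0.00735) was the largest increase among the tested members, and the lowest young value, in replicate 1, rests on 3 counts. Both calls held with each library left out.

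The other Ebf1 calls were less stable. The peak from 44497800 to 44498496, at 78.1 kb, had 6.62, 6.31, 6.00 and 4.75 CPM in old libraries and 2.10, 3.37, 2.75 and 4.52 CPM in young ones, with no overlap. The log2 increase of 0.87 ± 0.27 (edgeR adjusted p = 0.025) did not pass with DESeq2 (0.0843) or when old replicate 1, 2 or 3 or young replicate 1 or 3 was left out (0.0536 to 0.0841). The peak from 44424381 to 44425395, at 4.9 kb, had 20.4, 15.8, 16.1 and 13.6 CPM in old libraries and 9.09, 12.2, 13.8 and 12.1 CPM in young ones, and old replicate 4 lay below young replicate 3. The log2 fold change of 0.48 ± 0.17 (edgeR adjusted p = 0.0491) passed in 3 of 15 alternatives at the threshold of 0.05. Without old replicate 4 it was 0.57 ± 0.17 (edgeR adjusted p = 0.00998). The number of Ebf1 peaks called higher was 2 when old replicate 1, 2 or 3 or young replicate 1 was left out. In these fits 6.84% to 8.13% of all tested peaks were called higher. Without old replicate 4 the Ebf1 number was 5, against 14.5% of all tested peaks. Called peaks made up 71.4% of the difference in summed signal of 27.2 CPM. Seen from the start of the window, 3 of the 4 rising peaks lay in its first 78.1 kb and the strongest stood apart at 291.0 kb.

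At the Dntt window (chromosome 19, 41.09 to 41.145 Mb), all 6 peaks were tested, and 2 fell in old HSCs. The share that fell was 33.3%, where 10.4% of all tested peaks were called lower. The peak from 41096396 to 41097235, at 6.8 kb, had 1.53, 2.10, 1.15 and 3.10 CPM in old libraries and 6.06, 5.05, 6.75 and 7.54 CPM in young ones. No old library reached the young range. Its log2 fold change of -1.65 ± 0.30 (edgeR adjusted p = 0.000622) was the largest decrease among the tested members. The strongest Dntt peak, from 41105422 to 41106202 at 15.8 kb, had 19.9, 14.3, 18.7 and 18.4 CPM in old libraries and 24.5, 27.8, 28.0 and 29.7 CPM in young ones, again with no overlap. The peak fell by 0.63 ± 0.13 on the log2 scale (edgeR adjusted p = 0.00139), and both calls held in all alternatives in which the peak was tested. These peaks made up 81.5% of the difference in summed signal of -17.3 CPM. The peak at 36.7 kb went the other way, at 4.81 ± 0.518 CPM in old libraries and 2.87 ± 1.26 CPM in young ones (mean ± SD, 4 libraries each), with all old libraries above all young ones, but its log2 fold change of 0.75 ± 0.31 did not pass (edgeR adjusted p = 0.0946).

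The Rag1/Rag2 window (chromosome 2, 101.45 to 101.505 Mb) had 1 of 4 tested peaks lower in old HSCs and 0 higher. Over all tested peaks 10.4% were called lower, and a share that rests on 1 peak cannot be set apart from that. That peak, from 101458430 to 101458849 at 8.6 kb, had 1.53, 1.89, 2.08 and 1.65 CPM in old libraries and 3.73, 3.58, 2.25 and 4.74 CPM in young ones. The groups did not overlap, and young replicate 3 came closest to the old libraries. The log2 fold change of -1.0 ± 0.33 (edgeR adjusted p = 0.0355) did not pass with DESeq2 (0.138), with loess offsets (0.0535), without a count filter (0.0506) or without old replicate 1, 2 or 3 or young replicate 1 (0.0619 to 0.0939), and the peak was not tested without young replicate 2 or young replicate 4. The strongest peak of the window, from 101468506 to 101469399 at 19.0 kb, held 71.2% of its signal. It had 30.0, 28.0, 29.5 and 31.0 CPM in old libraries and 32.2, 33.2, 33.8 and 34.9 CPM in young ones. The old libraries were all below the young ones, but the log2 fold change of -0.18 ± 0.09 was small and did not pass (edgeR adjusted p = 0.19). Its 95% interval ran from -0.36 to 0.00. The called peak at 8.6 kb made up 23.3% of the window's difference in summed signal of -7.66 CPM.

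**Figure D3:**
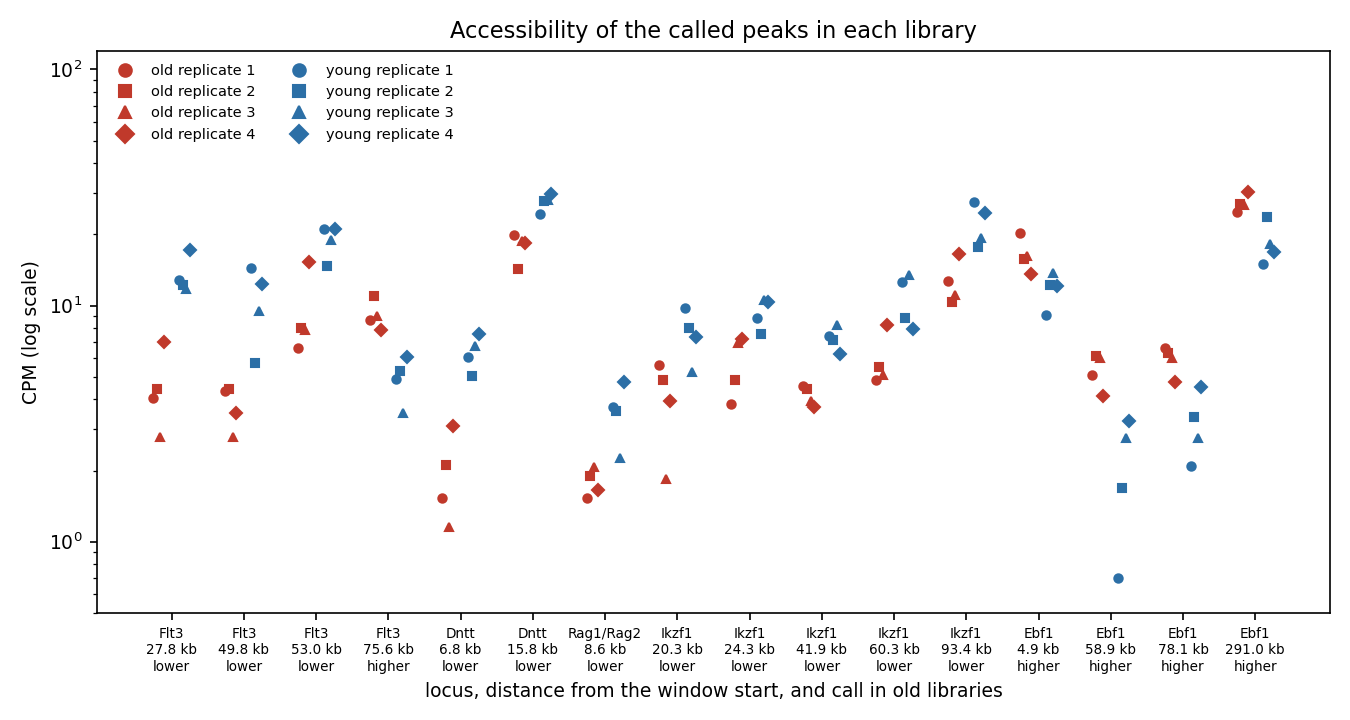
CPM on a log axis of the 16 called peaks in each library, old left of young, with marker shapes for replicate numbers and labels giving the window, the distance from its start and the direction called in old libraries. Old replicate 4 (diamonds) lies nearer to the young libraries than the other old replicates do at the Flt3 peaks at 27.8 and 53.0 kb, and among the old libraries at the Flt3 peak at 49.8 kb.

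The fixed tiles of 100 kb that cover the windows gave the same directions. Of 14 tiles, 12 were tested, and 2 were higher in old HSCs and 7 lower (edgeR, p adjusted over 16764 tiles, threshold 0.05), where 14.4% of all tiles were called higher, 14.7% lower and 29.1% in either direction. The tile on chromosome 5 from 148100001 to 148200000, which holds 8 Flt3 peaks among its 12, had 95.5 ± 6.43 CPM in old libraries and 124 ± 7.83 CPM in young ones (mean ± SD, 4 libraries each). The tile fell by 0.37 ± 0.06 on the log2 scale (edgeR adjusted p = 0.00033). Both Ikzf1 tiles fell, by 0.32 and by 0.37 on the log2 scale, as did both Dntt tiles, by 0.59 and by 0.44. At Ebf1, the tile from 44400001 to 44500000 had 46.4 ± 4.27 CPM in old libraries and 32.4 ± 5.56 CPM in young ones and a log2 fold change of 0.51 ± 0.12, with no overlap between the groups. The second Ebf1 tile called higher, from 44700001 to 44800000, had a log2 fold change of 0.41 with overlapping groups. The number of Ebf1 tiles called was 1 without old replicate 2 or 3 or young replicate 1, 3 or 4. The shares of all tiles called in those fits are not given here. The Rag1/Rag2 tile from 101400001 to 101500000 fell by 0.26 on the log2 scale (edgeR adjusted p = 0.0255), and the next tile, with 0 members, did not pass (edgeR adjusted p = 0.542). All 5 Ebf1 tiles and the Ikzf1 tile from 11600001 to 11700000 hold members alone, so they repeat the members on a fixed grid and their p is not given. The Flt3 and Dntt tiles, the other Ikzf1 tile and the Rag1/Rag2 tile that fell also hold peaks outside the windows.

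**Figure D4:**
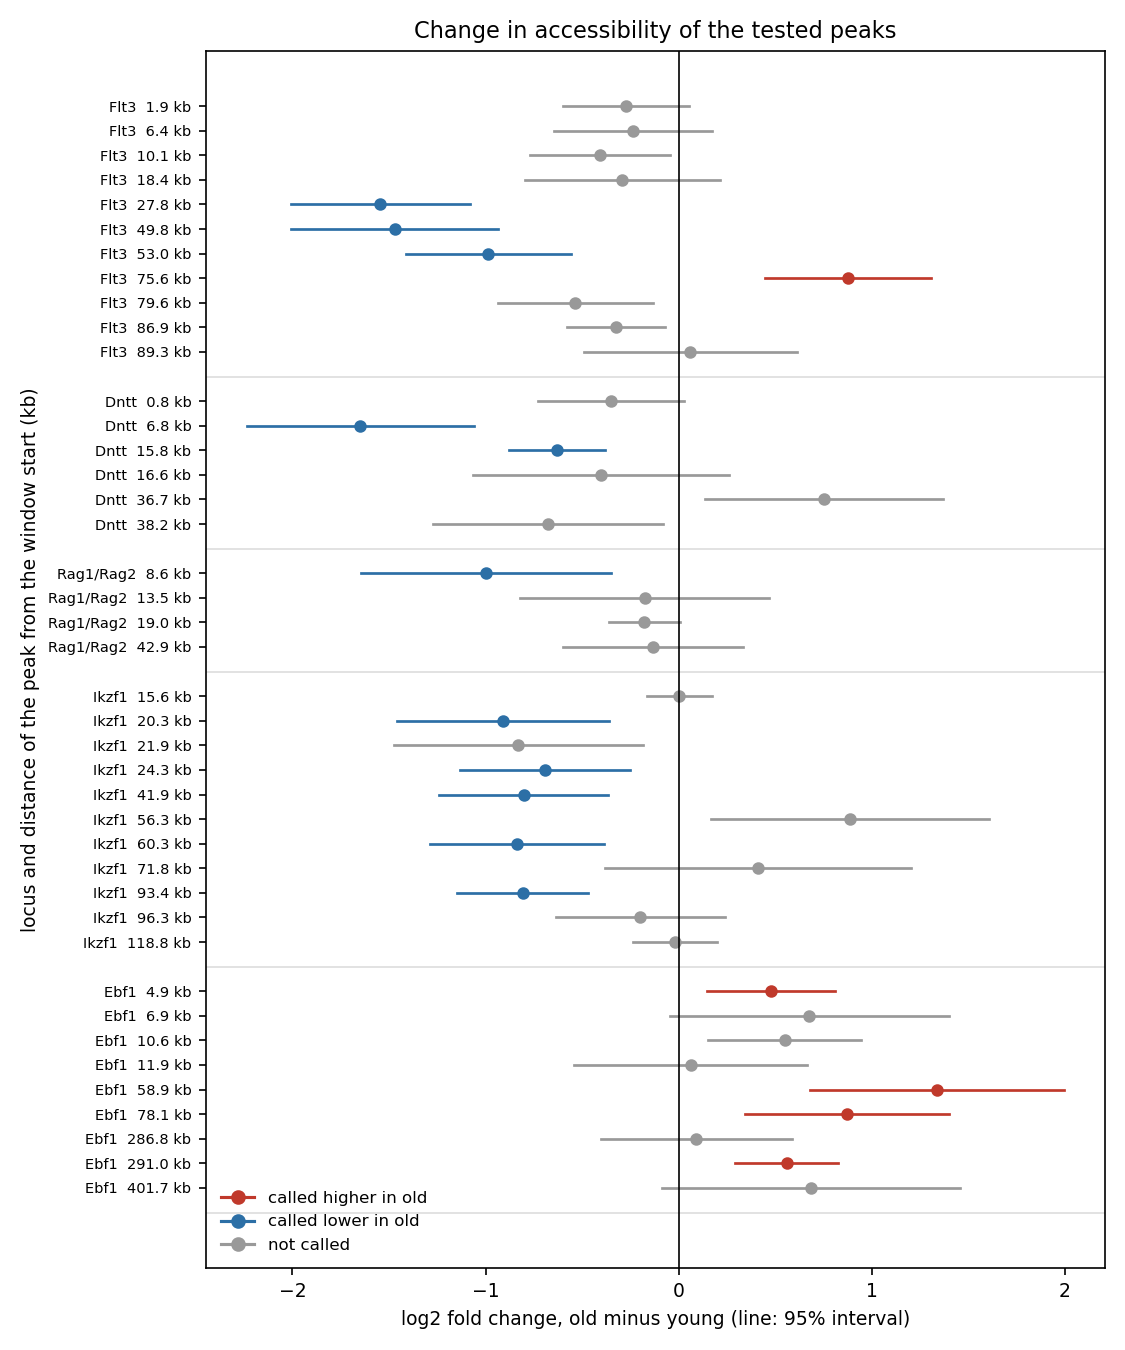
Log2 fold change, old minus young, of the 41 tested members with 95% intervals, by window and distance from its start. The tested Ebf1 peaks all lie right of 0, and 26 of the other 32 lie left of it.

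At the 21 members called without old replicate 4, its level was placed on a scale that is 0 at the mean of young libraries and 1 at that of old replicates 1 to 3. The position had a median of 0.525 and ran from 0.139 to 1.51, and the library lay inside the young range at 6 of the 21. Members called without a library are chosen for a wide gap between the others, so the same was done for each other old library. Left out in turn, old replicates 1, 2 and 3 had a median position of 0.89 at 11 members, 1.07 at 12 and 1.21 at 11, and lay inside the young range at 1, 0 and 0 of them. All 16 peaks called with all libraries were among the 21. The 5 others, seen only after leaving it out, were the Ikzf1 peak at 56.3 kb and the Ebf1 peak at 10.6 kb, which were higher in old, and the Dntt peak at 38.2 kb and the Flt3 peaks at 10.1 and 79.6 kb, which were lower. At the Flt3 peak at 49.8 kb and the Ebf1 peak at 291.0 kb its position was 1.05 and 1.51, that is at or past the other old libraries. Why this library differs from the others was not tested.

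The 22 members left out by the filter had 18 to 74 counts in all over the 8 libraries. In the fit without a count filter 0 of them were called higher and 1 lower, the Flt3 peak at 26.4 kb, where 8.46% of all peaks were called higher and 7.69% lower. Sites of this strength could differ without being detectable at this depth. Of the untested members, 9 lay at Ikzf1 and 8 at Ebf1, so for these windows the counts of called peaks cover 11 of 20 and 9 of 17 peaks.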

How the data were processed

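The deposited table holds raw read counts per peak for 8 libraries over 1 shared peak set, as whole numbers that the authors did not normalize. Per the submitters' processing notes, the tools were Trim Galore, FastQC, Bowtie2, SAMtools, Picard and MACS2 and the build was mm9; no version is named. Not given in the sources used here are the merging of peaks, the counting program and any shift of read ends for transposase cuts. A peak set called on the compared libraries can favour peaks open in either group.

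Peaks were kept with filterByExpr by group (minimum count 10, minimum total 15) and scaled by TMM. The comparison of old with young used edgeR 4.0.16 in R 4.3.3 (glmQLFit with robust set, then glmQLFTest) and a design of group alone. Calls needed p below 0.05 after Benjamini-Hochberg adjustment over all tested peaks, and SE is the size of the log2 fold change over the root of F. The code was tested on simulated counts. Counts were also summed over tiles of 100000 bases. Named peaks were, per window, up to 4 called in each direction by smallest p and the strongest peak, or the tested peak with the smallest p where none was called. Any other peak named was picked after its values were known. Members, windows and tests were chosen with earlier results of these data known. Alternatives changed the scaling (DESeq2 1.42.0 size factors, total count, loess offsets with limma 3.58.1), the count filter, the test (DESeq2) or the threshold, added the replicate number as a block, or left out each library.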

Additional observations from a re-analysis of the deposited data

Results flagged for a closer look

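Among 48 groups of 4 values screened (the summed CPM of each window and the CPM of each named peak, in old and in young libraries), 1 held a library far from the other 3, where chance gives about 1 in 20. At the Flt3 peak on chromosome 5 from 148177625 to 148178435, old replicate 4 had 15.3 CPM and the other old libraries 6.62 to 7.99 CPM. The gap took up 0.842 of the range of the old group, above Dixon's critical value for 4 values. Its part in the result is shown by the fit without it, given with the Flt3 results.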

How the results depend on the processing

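The summed CPM of each window moved by less than the spread between replicates in all 66 comparisons with an alternative scaling, an edge peak included or a library left out. The log2 ratio, old over young, was -0.57 to -0.44 at Flt3, -0.58 to -0.45 at Dntt, -0.29 to -0.20 at Ikzf1, -0.28 to -0.22 at Rag1/Rag2, -1.36 to -0.80 at Il7r and 0.41 to 0.59 at Ebf1. With a mean count of at least 50, which left 12 members to test, 1 member was called higher and 3 lower (9.94% and 11.7% of all peaks tested). The DESeq2 test called 3 higher and 7 lower (6.82% and 7.13%), and an adjusted p below 0.01 left 3 higher and 6 lower (5.05% and 5.03%). With each library left out, 3 to 7 members were higher (6.84% to 14.5% of all peaks tested) and 8 to 14 lower (6.90% to 15.5%). In the same fits 1 to 2 tiles were higher and 6 to 7 lower, and the shares of all tiles are not given here. The count higher was 3 without old replicate 1, 2 or 3 or young replicate 1. Loess offsets, DESeq2 size factors and total count scaling gave 4 higher each and 10, 11 and 11 lower. Of 213 comparisons for the 15 called peaks named by rule, 181 kept the call, 32 lost it and 0 reversed. These comparisons all used the threshold of 0.05 and leave out the stricter one of 0.01. The strongest Ikzf1 peak, near no change, turned sign with total count scaling (-0.0245), loess offsets (-0.0577), a mean count of at least 50 (-0.0430) and a replicate block (-0.00235), and ran from -0.0752 to 0.0755 with a library left out. With a replicate block 4 members were higher and 11 lower (11.1% and 11.8% of all peaks tested). Same-numbered libraries deviated together at r = -0.014, 0.074, 0.0499 and 0.18, so the numbers were not taken to pair samples. Old replicates 1 and 3 did not correlate best with the young library of their own number. Depth limited the 22 untested members.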

Other observations

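Outside the lymphoid windows, the peaks most like the member with the smallest p in each direction were looked up over the 8 libraries, as a description. Likeness was the Pearson r of the log2 of CPM plus 0.5, on other chromosomes only. The libraries fall into 2 groups, so these r mostly reflect the shared difference between old and young. For the falling Flt3 peak at 27.8 kb these were peaks on chromosome 6 from 134316071 to 134318179 (r = 0.993), with 25.7 CPM in old HSCs and 45.8 CPM in young HSCs, on chromosome 9 from 61072769 to 61073355 (r = 0.993), with 2.81 CPM in old HSCs and 6.88 CPM in young HSCs, and on chromosome 16 from 20271435 to 20271969 (r = 0.992), with 1.31 CPM in old HSCs and 4.63 CPM in young HSCs. In all, 787 tested peaks elsewhere reached an r over 0.95 with it.

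For the rising Ebf1 peak at 291.0 kb the closest was a peak on the X chromosome from 114503783 to 114504189 (r = 0.994), with 3.10 CPM in old HSCs and 0.705 CPM in young HSCs. The young mean is at the level of about 3 counts in a library, so this r rests partly on very low counts. Next were peaks on chromosome 13 from 91363192 to 91364381 (r = 0.989), with 38.7 CPM in old HSCs and 30.3 CPM in young HSCs, and on chromosome 9 from 118961607 to 118962662 (r = 0.983), with 16.1 CPM in old HSCs and 10.7 CPM in young HSCs. Here 88 tested peaks passed an r of 0.95. Genes at these positions were not analysed here.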
